A study of Mus musculus with 12 samples.

Results

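The open chromatin at 9 genes that set the identity of cortical projection neurons was followed in neurons exposed to α-synuclein fibrils. The genes were Fezf2, Bcl11b, Tbr1, Foxp2, Cux1, Cux2, Rorb, Neurod2 and Neurod6. Peaks of all 12 ATAC-seq libraries were merged into regions where they overlapped by at least 1 bp, and every region in the body of one of these genes or within 50 kb either side was taken. This gave 370 of the 263785 regions of the series. ATAC-seq uses the transposase Tn5 to tag accessible DNA, so a peak marks a stretch of open chromatin.

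Primary cortical neurons came from wild-type C57BL/6 mouse embryos at embryonic day 18. There were 4 groups of 3 libraries, all labelled as batch 1. The control group received PBS for 7 days. The PFF group received pre-formed fibrils, aggregates of α-synuclein that seed further aggregation, for the same 7 days. PFF+MLi-2 neurons received PFF for 7 days and MLi-2, which inhibits LRRK2 kinase, for the last 5 of them. PFF+Rab5 ASO neurons received PFF for 7 days and antisense oligonucleotides against the endosomal GTPase Rab5 for the last 3. No group received MLi-2 or the Rab5 ASO without PFF, and no group received a control oligonucleotide in these data. The cultures hold neurons of all cortical layers together, so a peak at a layer-specific gene may come from some of the cells only, and a change in the mix of cells and a change within cells cannot be told apart.

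Projection neurons are the excitatory neurons that send axons out of their cortical area, and each layer holds types of its own. Fezf2, a zinc finger protein, and Bcl11b (CTIP2), which acts downstream of it, specify neurons of the deep layers that project below the cortex, while Tbr1, a T-box factor, specifies corticothalamic neurons and represses Fezf2 and Bcl11b. Foxp2 is a forkhead protein of deep-layer neurons, Cux1 and Cux2 are homeodomain proteins of the upper layers, and Rorb is a nuclear receptor of the layer that receives thalamic input. Neurod2 and Neurod6 are basic helix-loop-helix factors that nearly all cortical excitatory neurons switch on as they leave the cell cycle.

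The start sites of all 5 pan-neuronal and all 3 glutamatergic marker genes checked had a peak in each of the 12 libraries. Those of 5 of 6 interneuron, 3 of 4 astrocyte and 3 of 4 oligodendrocyte-lineage markers did too, whereas 3 of 4 microglial markers had no peak in any library. The fourth, Csf1r, had a peak in 7 libraries, including all 3 of PFF and all 3 of no other group. By the height percentile defined below, means ran from 58.6 to 98.7 for pan-neuronal and from 14.3 (Slc17a7) to 70.7 for glutamatergic markers. They ran from 29.9 to 68.7 for interneuron, 34.7 to 86.7 for astrocyte and 11.1 to 88.7 for oligodendrocyte-lineage markers. These means were taken over the libraries with a peak. Libraries held 137417 to 184717 peaks, with a median summit pileup of 16 to 18 fragments. The total read number was not used here, and a relative depth derived from the peak lists was 0.912 to 0.976 in PBS, 0.775 to 0.919 in PFF, 0.957 to 1.03 in PFF+MLi-2 and 1.05 to 1.31 in PFF+Rab5 ASO. Peaks as narrow as 53 to 59 bp were called with Rab5 ASO, whereas the narrowest elsewhere were 62 to 66 bp. PBS replicate 1 stood apart from its group, with 180989 peaks against 137417 and 152173. The part of these differences in the results below was not tested.

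Most of the regions lay away from start sites, as they did over the whole series. Introns held 145 of the 370 regions, the downstream flanks 78, the upstream flanks 70 and exons 6. A further 46 lay within 1 kb of a start site of the gene itself, counting all its annotated transcripts, and 25 lay within 1 kb of a start site of a neighbouring gene, together 71 (19.19%), next to 17.1% of all regions. Of the 370 regions, 102 (27.57%) had a peak in all 12 libraries, next to 27.47% of all regions, and 95 (25.68%) had a peak in a single library, next to 26.64%. Height was read as a percentile, the rank of a peak's fold enrichment within the library's own list with 100 for the highest, because fold values of separately called lists cannot be compared directly. The median region of the 9 genes had a mean percentile of 29.5, against 35.31 over all regions, and among regions present in all 12 libraries the medians were 69.28 and 73.75.

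The loci differed widely in how densely they were covered. Neurod2, a short gene in a gene-rich stretch, had 47 regions (45.09 per 100 kb of window), 10 of them at start sites of neighbours such as Ppp1r1b and Stard3. Fezf2 had 35 (32.99 per 100 kb), Bcl11b 47 (24.33), Cux2 66 (22.47), Neurod6 20 (19.33), Cux1 76 (18.12) and Tbr1 19 (17.09). The 2 lowest densities were at Rorb, with 28 regions (9.979 per 100 kb), and at Foxp2, the longest of the genes, with 32 (4.995). Of the 102 regions found in every library, Cux1 held 24, Cux2 23, Bcl11b 16, Neurod2 15, Rorb 7, Foxp2 6, Fezf2 and Neurod6 4 each and Tbr1 3. Of the 9 regions with a mean percentile of at least 90 in all 12 libraries, 4 were at Cux2, 3 at Cux1, and 1 each at Rorb and Foxp2. The 4 in the Cux2 window include the start-site region of the neighbouring gene Pheta1.

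**Figure D1:**
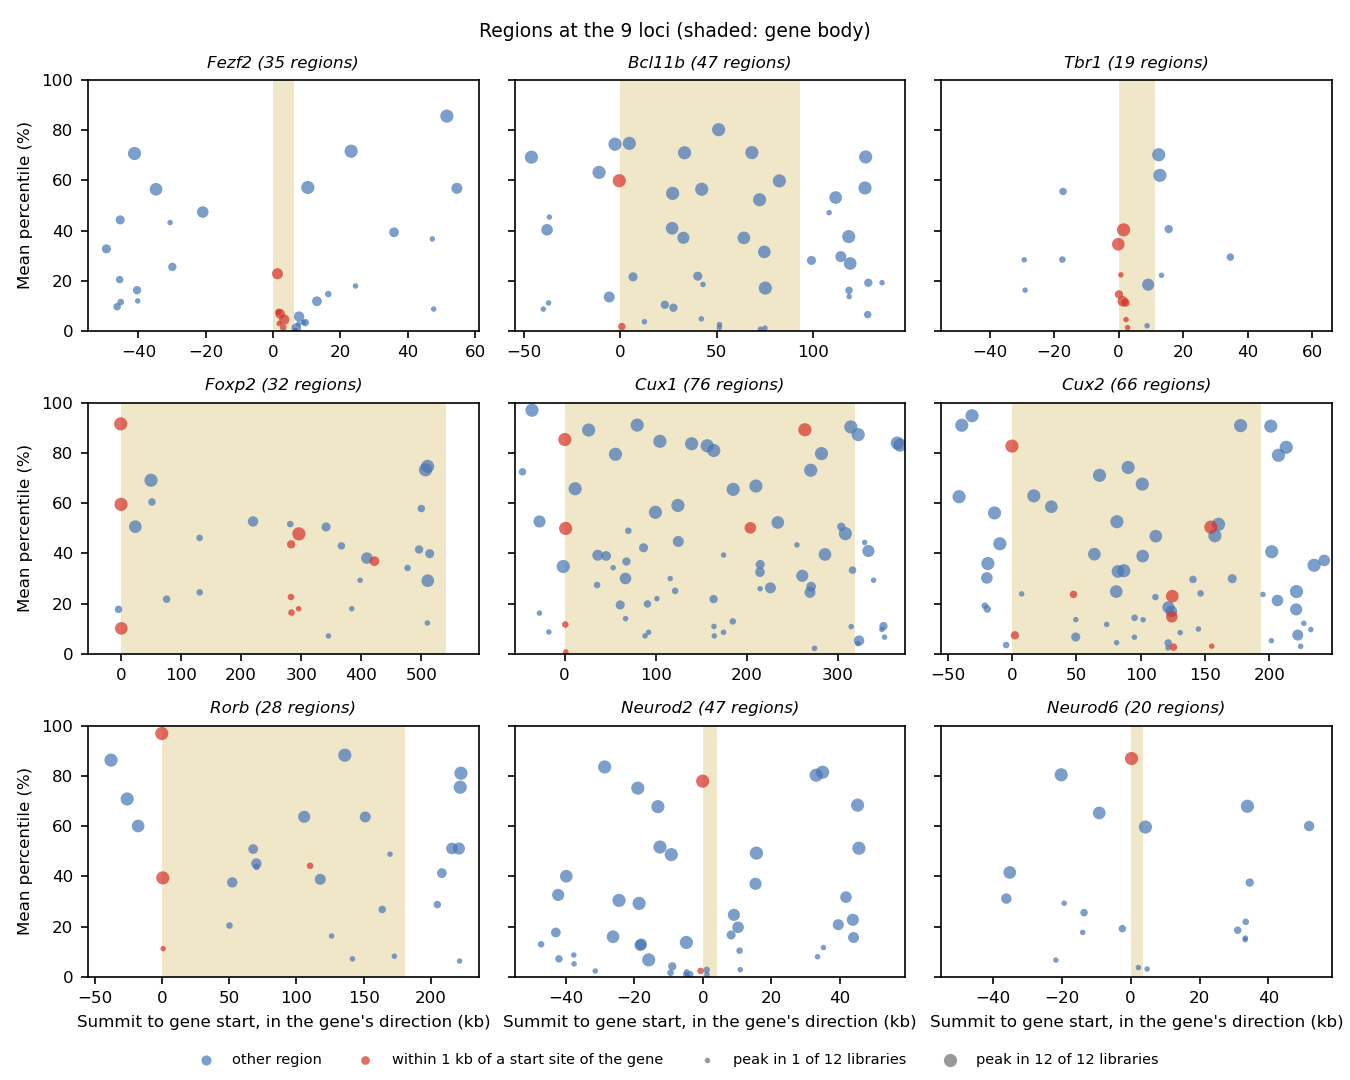
Each panel plots the regions of a gene by the distance of the summit from the gene start in kb (x axis, in the direction of transcription) and the mean percentile of fold over the libraries with a peak (y axis, %), with point size giving the number of libraries, red the regions within 1 kb of a start site of the gene and the gene body shaded. High regions lie far from the start at Cux1 and Cux2, whereas Fezf2 carries a cluster of low regions over its own gene body.

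For each gene the start-site region with a peak in most libraries was named, with ties going to the highest mean percentile. Its height is thus partly set by that choice. Among the deep-layer genes, the start-site regions named by this rule ranged from high to low in the lists. Foxp2 had 9 start-site regions, and 3 of them tied at 12 libraries. The highest of the 3 was thus named (GRCm38 chr6:14900528-14901045, 532 bp upstream at its summit). It stood at a mean percentile of 91.6, with values from 85.8 to 96.5 over the 12 libraries. Another of the 3, over the annotated Foxp2 start itself (chr6:14901163-14901702), averaged 59.6. At Bcl11b the region 590 bp upstream of the start (chr12:108003855-108004296) averaged 59.9. Its percentiles were 67.4, 63.9 and 66.6 in PBS, 52.2, 52.1 and 54.5 in PFF, 50.5, 73.3 and 58.7 in PFF+MLi-2 and 68.0, 58.2 and 52.7 in PFF+Rab5 ASO. All PFF libraries were below all PBS libraries there, and the other groups spanned both. The height rank difference between PFF and PBS was -0.54 ± 0.21 (SE, in standard deviations of the normal score) and did not pass the test over all regions (limma, adjusted p = 0.434).

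Tbr1 had a low and variable start-site region (chr2:61804363-61804750, summit 1544 bp inside the gene) with a mean percentile of 40.3. It stood at 56.3, 35.9 and 20.8 in PBS, 24.5, 45.9 and 13.98 in PFF, 49.99, 53.6 and 59.0 in PFF+MLi-2 and 52.0, 35.1 and 35.9 in PFF+Rab5 ASO. The PFF+MLi-2 libraries were all above the PFF libraries, while PBS and PFF overlapped. Fezf2 was the gene of the set with no start-site region in all 12 libraries. Its most frequent one (chr14:12346632-12347004, 1304 bp inside the gene) had a peak in 8, at percentiles of 9.72 to 46.4. Its other start-site regions were lower still, at 13.93 or less. The nearest region present in all 12 libraries (chr14:12337490-12338503) had its summit 10307 bp downstream of the start, at percentiles of 44.63 to 67.55.

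The start-site regions named for the upper-layer genes were high in every library. Cux1 had 6 start-site regions, 3 of them in all 12 libraries, and Cux2 had 8, 2 of them in all 12. Lower ones at internal starts of both genes are given further below. The Rorb promoter region (chr19:19111086-19111630) was the highest of the 9, at 97.0 on average and between 94.6 and 98.5. Cux2 (chr5:122049749-122050580) averaged 82.8, with a range from 78.1 to 89.8. At Cux1 the region over the start of the longest transcripts (chr5:136566989-136567742) averaged 85.4, and a region 263931 bp further in (chr5:136303487-136303906), at the start of a shorter Cux1 transcript, averaged 89.3. None of these 4 regions passed the test of a difference between the groups (limma F test over the 4 groups, adjusted p = 0.901, 0.774, 0.722 and 0.893 in that order).

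The start-site regions named for the helix-loop-helix genes were also high. Neurod6 (chr6:55681015-55681378) averaged 87.0, with values from 82.5 to 90.1. The Neurod2 region (chr11:98329540-98329912) stood at 80.6, 83.4 and 85.1 in PBS, 77.7, 82.0 and 76.9 in PFF, 82.1, 81.0 and 81.6 in PFF+MLi-2 and 64.3, 75.0 and 65.8 in PFF+Rab5 ASO. The PFF+Rab5 ASO libraries were below the other 9, but the height rank difference did not pass the test against PFF (-0.47 ± 0.21 SE, limma adjusted p = 0.239) or against PBS (-0.72 ± 0.23, adjusted p = 0.130). Both promoters are shown because their open regions overlap these stretches directly upstream of the start. The sequences are from RefSeq's table for GRCm38, minus strand, at chr11:98329649-98329895 and chr6:55681264-55681513. Capitals mark CAGATG, the E-box bound by NEUROD factors, and ACACCT, the reverse complement of the T-box core AGGTGT.
Neurod2 promoter: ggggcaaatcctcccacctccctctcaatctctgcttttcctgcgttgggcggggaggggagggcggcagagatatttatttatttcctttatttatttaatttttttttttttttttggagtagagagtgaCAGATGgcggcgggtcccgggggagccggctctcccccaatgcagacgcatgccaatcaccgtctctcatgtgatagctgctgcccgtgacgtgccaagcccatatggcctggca
Neurod6 promoter: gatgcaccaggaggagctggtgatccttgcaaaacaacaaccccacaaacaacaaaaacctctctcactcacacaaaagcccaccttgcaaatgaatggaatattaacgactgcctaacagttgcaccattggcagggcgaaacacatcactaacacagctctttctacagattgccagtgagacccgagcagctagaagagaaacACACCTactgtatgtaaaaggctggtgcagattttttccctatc

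**Figure D2:**
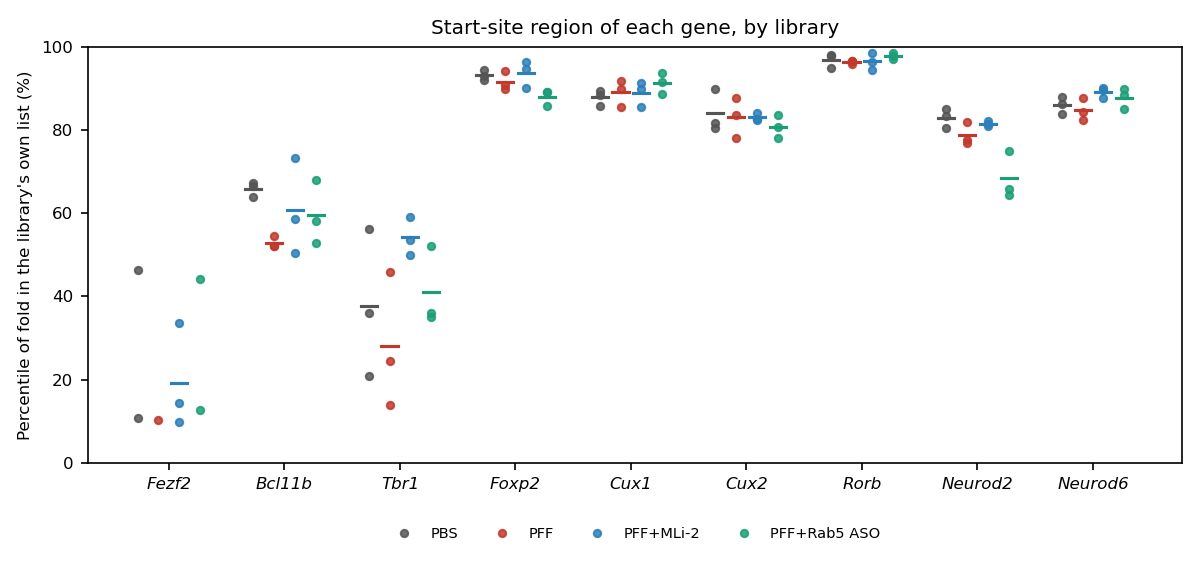
Percentile of fold in the library's own list (y axis, %) for the start-site region named for each gene (x axis), with a point per library and a bar at the mean where all 3 libraries of a group have a peak. Rorb lies between 94.6 and 98.5 in every library, Tbr1 and Fezf2 are low, and Neurod2 is lowest in PFF+Rab5 ASO.

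Regions away from any start site were as high as the promoters at several loci. At Cux1 a region 35904 bp upstream (chr5:136603175-136603649) averaged 97.1, and it stood at 95.6, 93.2 and 97.6 in PBS against 98.4, 98.9 and 99.0 in PFF, in lists of unequal length. This difference did not pass the test over all regions (height rank difference 0.59 ± 0.22 SE, limma adjusted p = 0.425). At Cux2 a region 31004 bp upstream (chr5:122080959-122081277) averaged 94.9. An intronic Rorb region 135991 bp into the gene (chr19:18975116-18975357) averaged 88.3. These 3 flanking or intronic regions had a peak in all 12 libraries.

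At the deep-layer genes, which had fewer regions to choose from than Cux1 and Cux2, the highest such region was in a Bcl11b intron (chr12:107952210-107952669) at 80.2, in a Foxp2 exon near the 3′ end (chr6:15411557-15411946) at 74.7 and in the flank 3′ of Tbr1 (chr2:61815064-61815503) at 70.2. For Fezf2 the highest was 85.6, but that region (chr14:12296445-12296806) lies in the neighbouring transcripts 3830406C13Rik and Gm49355. Neurod2 had a downstream region (chr11:98294486-98294949) at 81.5 and Neurod6 an upstream one (chr6:55701093-55701607) at 80.5. The Neurod6 region varied most, from 56.2 to 97.0, and stood at 91.5, 84.5 and 97.0 in PFF against 85.5, 56.2 and 83.7 in PBS, with overlap between the groups.

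Few of these regions were gained or lost with PFF. A gained region is one with a peak in every library of the first-named group and in none of the second, and a lost region is the opposite. Against PBS, 4 of 304 regions were gained and 1 was lost, 1.64% in all, next to 1.5% of all regions (gained 1.1%, lost 0.405%). Among 19 other projection neuron genes, such as Sox5 and Tle4, 7 of 738 regions were gained and 4 lost. The share at the 9 genes was near the background. When each list was limited to its 137417 highest peaks, so that all were equally long, the balance at these genes turned, to 1 gained and 4 lost of 254 regions, whereas over all regions it did not (gained 1.01%, lost 0.566%). With 3 libraries against 3, no single region can reach an exact p below 0.1, so these calls carry no test. The counts rest on single libraries. Without PBS replicate 1 there were 13 gained and 2 lost, when 2 PBS libraries without a peak sufficed (5.28% of these regions, next to 3.71% of all). Leaving out any 1 of the 6 libraries gave 8 to 17 calls in all (2.68% to 5.92%), while the share over all regions also rose, to 2.79% to 3.71%.

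The 4 gained regions were low and lay far from the main promoters. In Cux2, a region 47811 bp into the gene at the start of an internal transcript (chr5:122002215-122002402) had percentiles of 24.4, 15.5 and 31.1 in PFF and no peak in the other 9 libraries. It was the single region of the set found in the PFF libraries alone. A Cux1 intron (chr5:136352799-136352982) stood at 23.1, 25.6 and 25.9 in PFF and at 50.5, 23.6 and 46.4 in PFF+Rab5 ASO, with no peak in PBS or PFF+MLi-2. Downstream of Fezf2, chr14:12335052-12335239 had the same presence pattern, at 6.45, 5.49 and 19.2 in PFF and 6.46, 21.2 and 11.98 in PFF+Rab5 ASO. Downstream of Bcl11b, chr12:107874596-107874755 stood at 26.3, 9.32 and 7.097 in PFF and had 1 further peak, in PFF+MLi-2. The lost region (chr11:98285519-98285627), in the Neurod2 window but at a start site of Gm20644, had percentiles of 5.88, 6.07 and 13.8 in PBS. Summits of the 5 regions rested on 10 to 27 fragments in a library. The Cux2, Cux1 and Fezf2 sequences are given since these 3 had a peak in every PFF library and in no PBS or PFF+MLi-2 library. They are read from RefSeq's GRCm38 genome on the minus strand, the strand of each gene, with the Cux2 run limited to chr5:122002345-122002402, the part upstream of the internal start. Capitals mark CATCTG, the reverse complement of CAGATG.
Cux2 internal start: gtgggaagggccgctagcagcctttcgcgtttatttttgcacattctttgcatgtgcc
Cux1 intron: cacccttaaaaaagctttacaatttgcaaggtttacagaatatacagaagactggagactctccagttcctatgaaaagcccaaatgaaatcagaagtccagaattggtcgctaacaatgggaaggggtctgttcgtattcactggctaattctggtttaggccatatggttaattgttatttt
Fezf2 downstream: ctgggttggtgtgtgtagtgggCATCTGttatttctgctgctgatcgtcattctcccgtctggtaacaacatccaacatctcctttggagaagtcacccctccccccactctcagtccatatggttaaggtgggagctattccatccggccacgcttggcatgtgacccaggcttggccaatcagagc

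Peak height gave no call for PFF vs PBS. Each library's fold values over the 72465 regions shared by all 12 libraries were ranked and turned into normal scores, and the groups were compared with limma across all of these regions. At an adjusted p under 0.05, limma called 0 of the 102 regions at the 9 genes and 0.0% of all regions. At an unadjusted p under 0.05 it gave 11 of the 102 (10.78%), next to 9.72% of all. The PFF and PBS libraries did not overlap at 18 regions, 7 higher and 11 lower in PFF, where the background was 15.1%. The smallest p belonged to a region in the Rorb window inside Trpm6 (chr19:18889198-18889691), which stood at 82.8, 81.4 and 82.0 in PBS and 75.8, 65.8 and 56.0 in PFF (-0.76 ± 0.23 SE, limma adjusted p = 0.331). Next were a region 13105 bp upstream of Neurod2 (chr11:98342537-98342912, -0.62 ± 0.21) and one 41175 bp upstream of Fezf2 inside Cadps (chr14:12389205-12389462, 0.77 ± 0.25), both with a limma adjusted p of 0.371.

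With MLi-2 added to PFF, the regions called by the same rule were all lost ones in the full lists, but not in lists of equal length. Of 298 regions, 8 were lost and 0 gained relative to PFF (2.68%), next to 2.01% of all regions (lost 1.64%, gained 0.374%), and 12 lost and 4 gained of 709 at the other 19 genes. The count of 8 became 21 without PFF replicate 1, 15 without PFF replicate 3, 14 without PFF+MLi-2 replicate 1 and 15 without PFF+MLi-2 replicate 2. These are 7.47%, 5.21%, 4.78% and 5.28% of the regions, next to 4.15%, 4.29%, 3.5% and 3.55% of all. PFF+MLi-2 libraries also had fewer peaks in total, 145497 to 147991 against 151900 to 172377 in PFF. With every list limited to its 137417 highest peaks, 5 of 257 regions were gained and 3 lost, next to 0.746% and 1.08% of all regions, so the direction at these genes depended on list length. The 8 of the full lists included the Cux2, Cux1 and Fezf2 regions shown above. The highest was a region at an internal Cux1 start (chr5:136363381-136363530), at 73.7, 42.0 and 68.2 in PFF, 39.7, 40.5 and 57.0 in PBS and 60.7, 28.3 and 41.7 in PFF+Rab5 ASO. It was absent from the PFF+MLi-2 libraries alone, so this loss held against PBS as well. At an internal Foxp2 start (chr6:15184551-15184714) the PFF percentiles were 18.5, 49.99 and 58.0, with 1 further peak in PBS. A Cux2 intron (chr5:121878866-121879062) stood at 33.8, 45.7 and 26.4 in PFF and the flank 3′ of Bcl11b (chr12:107904179-107904299) at 18.5, 42.0 and 22.6. The last 2 each had a peak in 1 PBS and 1 PFF+Rab5 ASO library too. The eighth was in a Bcl11b intron (chr12:107996944-107997085).

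By height, limma called 0 of the 102 regions for PFF+MLi-2 vs PFF at an adjusted p under 0.05, as for all regions (0.0%), and 9 (8.82%) at an unadjusted p under 0.05, next to 11.4% of all. Groups did not overlap at 17 regions, 13 higher and 4 lower with MLi-2, with a background of 17.7%. The smallest p was at the Tbr1 start-site region described above, at 54.2 ± 4.53 in PFF+MLi-2 and 28.1 ± 16.3 in PFF (SD, n = 3, height rank difference 0.92 ± 0.24 SE, limma adjusted p = 0.266). The Trpm6 region in the Rorb window was next (0.70 ± 0.22, limma adjusted p = 0.311), at 79.8, 81.6 and 77.0 with MLi-2. A Cux1 intron (chr5:136467660-136468062) followed (0.78 ± 0.28, limma adjusted p = 0.363).

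With Rab5 ASO, regions of these genes were both gained and lost. Relative to PFF, 7 of 325 regions were gained and 6 lost with Rab5 ASO (4%), next to 4.57% of all regions (gained 2.64%, lost 1.94%), and 22 gained and 14 lost of 800 at the other 19 genes. Windows of 10 kb instead of 50 kb held 6 of these calls (2.83%), next to 4.57% of all regions. For PFF+MLi-2 vs PFF such windows held 8 (4.06%), next to 2.01% of all. The 2 treatments thus had no fixed order by number of calls. The count of 13 became 22 without PFF replicate 1 and 20 without PFF replicate 3 or PFF+Rab5 ASO replicate 1 or 2. These are 6.33% to 7.17% of the regions, next to 6.89% to 7.21% of all, so the share again lay near the background. With peaks limited to a -log10 q of at least 5, there were 16 calls among 245 regions (6.53%), next to 4.7% of all. The PFF+Rab5 ASO libraries had the higher relative depth and the narrower peaks given above, and the part of these in the calls was not tested. No region at Rorb was gained or lost in any of the 5 comparisons.

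Of the gained regions, 4 had a peak in the 3 PFF+Rab5 ASO libraries and in no other library. The highest was 46347 bp upstream of Cux1 (chr5:136613761-136613963), at 69.7, 66.1 and 81.7. There were 2 in Foxp2 introns, chr6:14952797-14952949 at 48.0, 61.2 and 72.3 and chr6:15401233-15401444 at 39.4, 66.1 and 68.2. The other was 17219 bp upstream of Tbr1 inside Psmd14 (chr2:61785611-61785815), at 48.0, 55.4 and 63.3. Summits of these 4 held 13 to 21 fragments, few in number although the percentiles are moderate. A Neurod2 region 41869 bp downstream of the start (chr11:98287661-98287826) showed the opposite pattern. It had a peak in all libraries but those with Rab5 ASO, at 24, 5.62 and 23.6 in PBS, 42.7, 44.6 and 48.7 in PFF and 42.5, 25.5 and 28.3 in PFF+MLi-2. Also lost was the highest PFF peak among the 6, a region 51797 bp downstream of the Neurod6 start (chr6:55629151-55629612) at 76.9, 82.6 and 63.5 in PFF and at 30.2, 61.1 and 49.8 in PFF+MLi-2. In PBS this Neurod6 region had a peak in 1 library, at 56.2. The 2 regions called lost at the internal starts of Foxp2 and Cux2 were those lost with MLi-2. The Cux1 upstream sequence, of the highest region found with Rab5 ASO alone, is given on the minus strand from RefSeq's GRCm38 genome.
Cux1 upstream: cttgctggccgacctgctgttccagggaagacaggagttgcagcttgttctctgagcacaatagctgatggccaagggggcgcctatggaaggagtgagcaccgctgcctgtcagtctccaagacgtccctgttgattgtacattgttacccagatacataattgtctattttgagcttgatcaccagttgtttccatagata

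**Figure D3:**
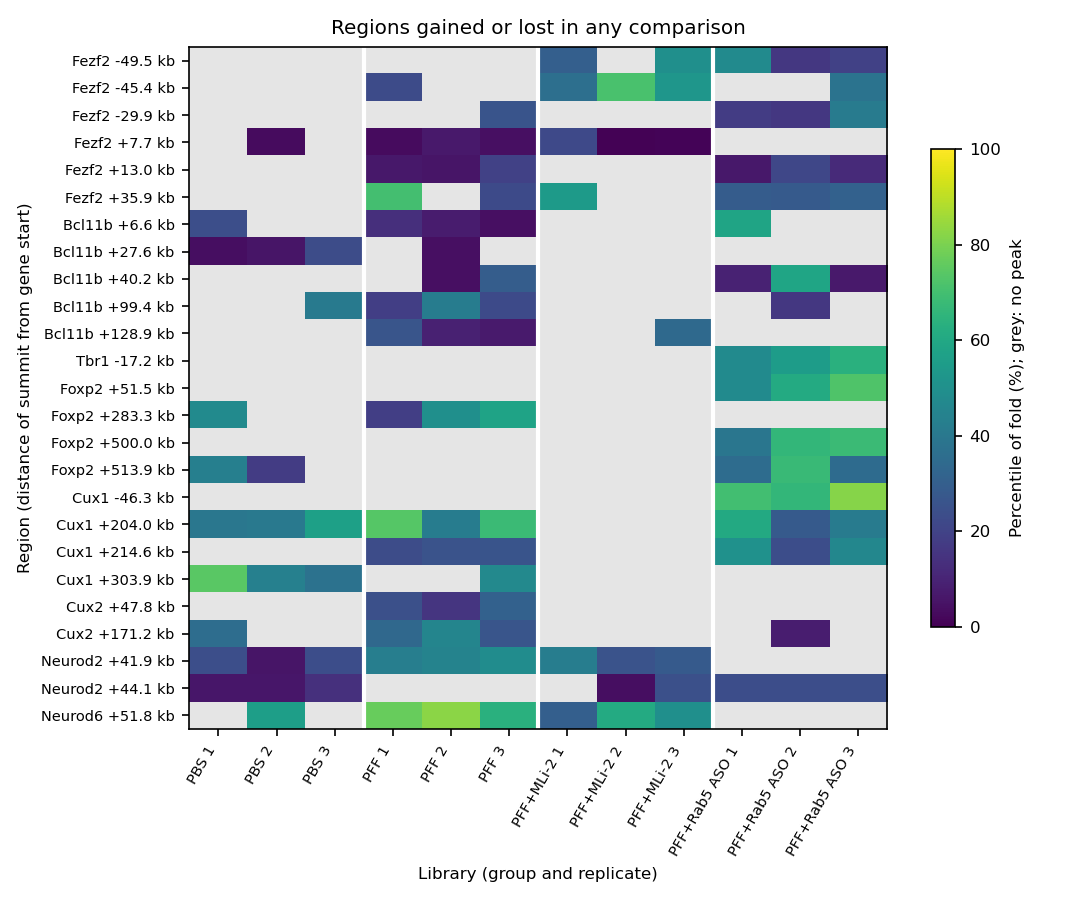
The 25 regions gained or lost in at least 1 comparison (y axis, gene and distance of the summit from its start in kb) by library (x axis), coloured by percentile of fold (%), with grey where the library has no peak. The 4 regions present in the PFF+Rab5 ASO libraries alone and the single region present in the PFF libraries alone stand out as blocks.

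Height rank separated Rab5 ASO from PFF at 3 of the 102 regions, next to 3.83% of all regions tested (limma, adjusted p under 0.05), at Foxp2, Bcl11b and Cux2. The calls depended on the scale and the fit, and none of the 3 passed when percentiles were tested in place of normal scores (limma adjusted p = 0.143, 0.0685 and 0.0830 in that order). At Foxp2 the region over the annotated start itself (chr6:14901163-14901702), next to the higher one upstream of it, stood at 80.8, 78.6 and 78.1 in PFF+Rab5 ASO, 37.2, 64.9 and 36.6 in PFF, 64.0, 46.9 and 55.3 in PBS and 56.0, 57.5 and 58.7 in PFF+MLi-2. All PFF+Rab5 ASO libraries were above the other 9. The difference from PFF was 1.21 ± 0.26 SE (limma adjusted p = 0.0373) and that from PBS 0.88 ± 0.20 (adjusted p = 0.0554). The call against PFF also ended when peaks were ranked by -log10 p (limma adjusted p = 0.0788), at equal list length (0.0573) and with the replicate number as a block (0.0509). The neighbouring upstream region lay the other way in value, at 88.0 ± 1.92 against 91.6 ± 2.28 (SD, n = 3), which did not pass the test (-0.30 ± 0.20 SE, limma adjusted p = 0.419).

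The Bcl11b region 127212 bp downstream of the start, in the flank beyond the gene (chr12:107876219-107876622), stood at 72.5, 80.6 and 77.3 in PFF+Rab5 ASO and 53.5, 39.6 and 47.0 in PFF (1.11 ± 0.21 SE, limma adjusted p = 0.0282). In PBS it was at 66.9, 36.8 and 46.6, and in PFF+MLi-2 it spread from 32.8 to 78.6. This call ended with all 12 libraries in 1 fit (limma adjusted p = 0.0741) and with the replicate number as a block (0.0520). The third was a Cux2 intron 81547 bp into the gene (chr5:121968400-121968714), lower with Rab5 ASO at 25.2, 46.2 and 23.4 against 72.8, 68.3 and 71.2 in PFF (-1.20 ± 0.22 SE, limma adjusted p = 0.0263, and 0.0482 with the block). PBS lay between them at 63.9, 51.1 and 58.6, and PFF+MLi-2 ranged from 24.1 to 68.2. Leaving out any 1 of the 6 libraries ended the Bcl11b call (limma adjusted p from 0.0569 to 0.0856). The Foxp2 call was lost without PFF replicate 1 or 3 or any of the PFF+Rab5 ASO replicates (up to 0.0988) and held without PFF replicate 2 (0.0372). The Cux2 call was lost without any PFF replicate or without PFF+Rab5 ASO replicate 1 or 3 (up to 0.0828) and held without PFF+Rab5 ASO replicate 2 (0.0416). Over the 102 regions, 21 had an unadjusted p under 0.05 (20.59%, next to 21.1% of all), and groups did not overlap at 31, 17 higher and 14 lower, with a background of 25.9%. The sequences of the 3 called regions are given from RefSeq's GRCm38 genome in the direction of each gene, the Foxp2 run limited to chr6:14901256-14901348, directly upstream of the start. For Cux2 and Bcl11b the runs are chr5:121968406-121968705 and chr12:107876241-107876540. Capitals mark ACACCT.
Foxp2 start: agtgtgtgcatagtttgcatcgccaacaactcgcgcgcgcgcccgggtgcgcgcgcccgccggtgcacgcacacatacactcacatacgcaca
Bcl11b downstream: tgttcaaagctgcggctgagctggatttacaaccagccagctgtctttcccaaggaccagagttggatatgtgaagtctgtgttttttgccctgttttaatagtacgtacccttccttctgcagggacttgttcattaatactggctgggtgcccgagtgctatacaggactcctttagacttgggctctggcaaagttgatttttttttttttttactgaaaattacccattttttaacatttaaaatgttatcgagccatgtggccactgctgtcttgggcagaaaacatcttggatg
Cux2 intron: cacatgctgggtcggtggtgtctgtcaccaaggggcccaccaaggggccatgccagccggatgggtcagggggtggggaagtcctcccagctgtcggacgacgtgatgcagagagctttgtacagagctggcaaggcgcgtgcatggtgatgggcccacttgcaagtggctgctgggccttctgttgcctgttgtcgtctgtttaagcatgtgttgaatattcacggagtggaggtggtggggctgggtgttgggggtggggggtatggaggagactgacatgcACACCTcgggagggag

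Against PBS, neither treated group returned a height call at these genes. For PFF+MLi-2, 1 of 283 regions was gained and 3 lost (1.41%), next to 0.803% of all regions (gained 0.225%, lost 0.577%). The gained region was upstream of Fezf2 inside Cadps (chr14:12393558-12393691) at 36.4, 71.4 and 52.6. The lost regions were the internal Cux1 start region described above and introns of Cux1 (chr5:136263487-136263700, at 74.5, 43.4 and 37.7 in PBS) and Bcl11b (chr12:107975974-107976198, at 3.66, 5.64 and 23.4). The count of 4 became 8 without PBS replicate 1 or 3 or PFF+MLi-2 replicate 2, 9 without PFF+MLi-2 replicate 3 and 10 without PBS replicate 2, or 2.91% to 3.56% of the regions next to 1.81% to 2.74% of all. limma called 0 of the 102 regions at an adjusted p under 0.05 (0.0% of all) and 3 at an unadjusted p under 0.05 (next to 5.77% of all), with the groups apart at 5 regions (background 10.3%). The 3 with the smallest p were the Tbr1 start site (0.60 ± 0.25 SE), a Cux2 intron (chr5:121959708-121960028, 0.48 ± 0.21) and a Neurod2 downstream region (chr11:98296362-98296614, 0.49 ± 0.22), with limma adjusted p of 0.858, 0.861 and 0.861.

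For PFF+Rab5 ASO vs PBS, 10 of 313 regions were gained and 3 lost (4.15%), next to 3.58% of all regions (gained 2.59%, lost 0.991%). The 4 regions found with Rab5 ASO alone and the 2 gained with PFF in Cux1 and downstream of Fezf2 were among the 10. The Neurod2 region absent with Rab5 ASO and the Cux1 and Bcl11b introns absent with MLi-2 made up the 3 lost. The count of 13 became 23 without PBS replicate 1 and 22 without PFF+Rab5 ASO replicate 1 or 2, or 7.38% to 7.99% of the regions next to 5.79% to 6.71% of all. limma called 0 of the 102 at an adjusted p under 0.05 (1.63% of all) and 20 (19.61%) at an unadjusted p under 0.05 (18.7% of all), with the groups apart at 24 (background 23.0%). The smallest p were at the Foxp2 start (given above), the Cux1 intron chr5:136467660-136468062 (-0.89 ± 0.21 SE, limma adjusted p = 0.0620) and the Bcl11b downstream region (0.92 ± 0.24, limma adjusted p = 0.0768). These comparisons share the PBS or PFF libraries with the others, so their calls are not independent of one another.

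**Figure D4:**
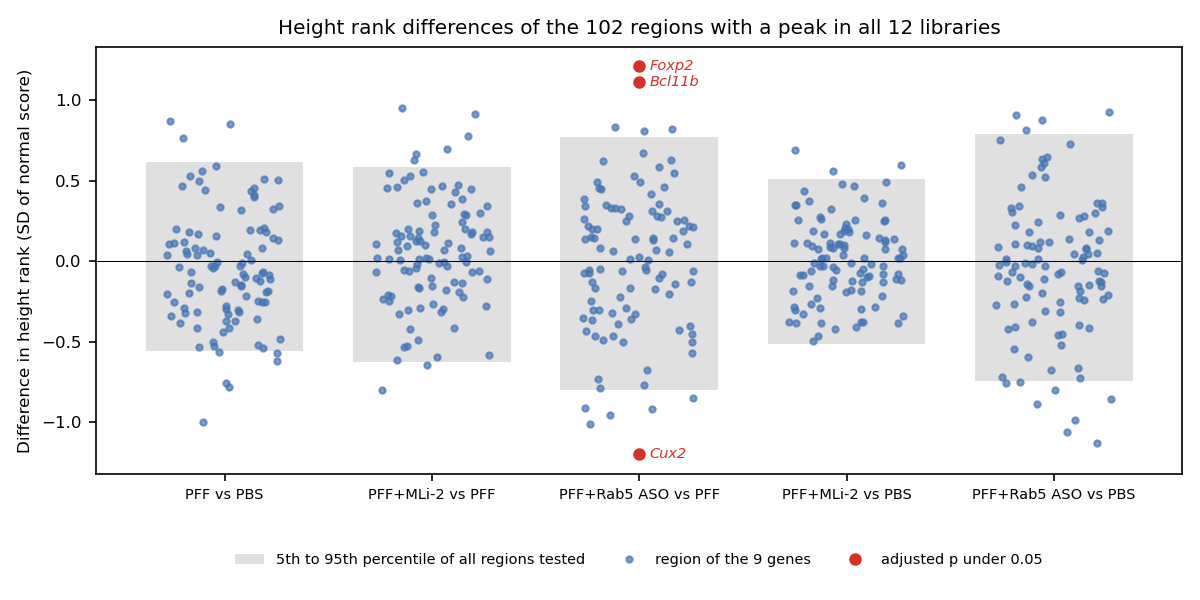
Height rank difference in standard deviations of the normal score (y axis) for the 102 regions present in all 12 libraries, by comparison (x axis), with the grey band from the 5th to the 95th percentile over all 72465 regions tested and horizontal jitter for legibility. Red points are the 3 regions with a limma adjusted p under 0.05, all in PFF+Rab5 ASO vs PFF.

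Over all 4 groups at once, the moderated F test of limma passed 2 of the 102 regions, next to 3.5% of all. The Foxp2 start region was one (F = 10.4, limma adjusted p = 0.0352). The other was the Cux1 intron 99742 bp into the gene (chr5:136467660-136468062, F = 9.64, limma adjusted p = 0.0407), at 67.3, 58.7 and 65.2 in PBS, 43.3, 58.6 and 62.4 in PFF, 62.9, 80.8 and 69.1 in PFF+MLi-2 and 44.4, 41.8 and 22.4 in PFF+Rab5 ASO. It was highest with MLi-2 and lowest with Rab5 ASO, with the PFF+MLi-2 libraries all above the PFF libraries and the PFF+Rab5 ASO libraries overlapping them. When single libraries were left out, its limma adjusted p ran from 0.0382 to 0.129 and was lost in 9 of 12 fits, those without PFF replicate 1, PFF replicate 3 or PFF+MLi-2 replicate 1 being the exceptions. The Foxp2 call was lost in 6 of 12, without PFF replicate 1 or 3, PFF+MLi-2 replicate 2 or any PFF+Rab5 ASO replicate (0.0186 to 0.114). Tested as percentiles, neither passed (limma adjusted p = 0.129 for Foxp2 and 0.116 for Cux1), and the Foxp2 call also ended when ranked by -log10 p (0.0673) and with the replicate block (0.0514). At an unadjusted p under 0.05 there were 24 of 102, next to 21.7% of all. The stretch of the Cux1 intron at chr5:136467660-136467898 is given from RefSeq's GRCm38 genome, minus strand, with TGACCT, the reverse complement of the nuclear receptor element AGGTCA, in capitals.
Cux1 intron: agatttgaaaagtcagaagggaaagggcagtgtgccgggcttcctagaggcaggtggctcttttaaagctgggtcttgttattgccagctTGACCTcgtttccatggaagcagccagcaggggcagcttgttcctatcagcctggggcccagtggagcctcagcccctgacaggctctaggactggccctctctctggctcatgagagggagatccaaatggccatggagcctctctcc

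The number of regions with a peak was lowest in the library with the shortest list (PBS replicate 2). It was 220, 166 and 183 of the 370 in PBS, 223, 211 and 200 in PFF, 172, 191 and 180 in PFF+MLi-2 and 223, 203 and 185 in PFF+Rab5 ASO. When each list was limited to its 137417 highest peaks, the groups drew together to 165 to 167, 165 to 174, 159 to 169 and 150 to 168. At Foxp2 the PFF+Rab5 ASO libraries had 25, 21 and 17 of the 32 regions, against 18, 12 and 10 in PBS, 18, 13 and 10 in PFF and 9, 14 and 10 in PFF+MLi-2. At equal list length the Foxp2 numbers were 16 to 19 with Rab5 ASO, 9 to 16 in PBS, 8 to 14 in PFF and 8 to 11 with MLi-2. At Cux2 and Neurod6 the order at equal list length was the opposite. It was 28 to 31 of the Cux2 regions with Rab5 ASO against 32 to 39 in the other 9 libraries, and 7 of the Neurod6 regions against 8 to 9. In the full lists the groups overlapped at both, with 38 to 39 against 36 to 47 at Cux2 and 8 to 9 against 8 to 11 at Neurod6. Such counts were not made for other genes. Bcl11b had 29, 35 and 34 regions in PFF against 24, 22 and 26 in PFF+MLi-2, but 20 to 27 and 20 to 25 at equal list length. No test was run on these numbers. For any pair of groups, 3 libraries against 3 cannot give an exact p below 0.1.

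**Figure D5:**
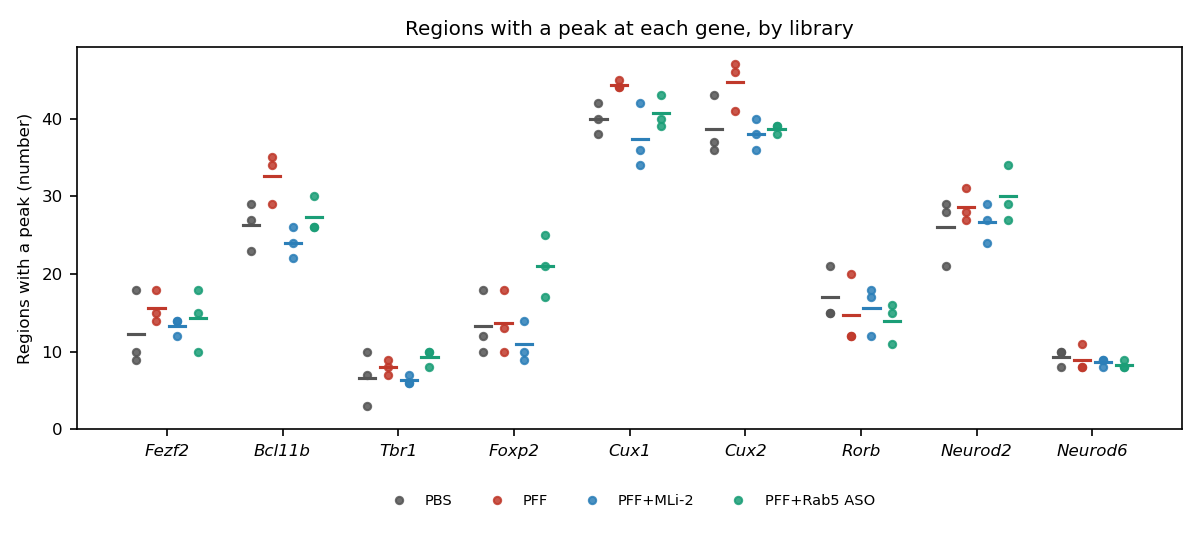
Number of regions with a peak at each gene (y axis) by library (points) and group mean (bars), for the 9 genes (x axis). PFF+Rab5 ASO is highest at Foxp2, with 17 to 25 regions, and PFF at Bcl11b, Cux1 and Cux2, before any adjustment for the length of the lists.

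In all, 25 of the 370 regions, at 8 of the 9 genes, were gained or lost in at least 1 comparison. Of these, 5 lay within 1 kb of a start site. Shares over all regions were counted for each comparison alone and not for calls in any of them. The count of 25 therefore has no background to be set against. The median summit pileup of the 25 regions was 15 fragments (range 10 to 31), against 26.5 for the 102 regions found in every library. Their median percentile was 32.55. The rule leaves these regions without a peak in at least 3 libraries, so the rule itself sets them apart from the 102, and the median percentile over all 370 was 29.5. The 3 regions gained with PFF and lost with MLi-2 were the ones in Cux1, Cux2 and downstream of Fezf2. The 2 gained with PFF and lost with Rab5 ASO were the Cux2 region and the one downstream of Bcl11b. Both calls of such a region rest on the same 3 PFF libraries, so a peak called in PFF alone meets both rules. No share over all regions was counted for these double calls.

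The factors encoded by several of these genes bind known short motifs, which were counted in the regions of the loci themselves. Within 100 bp of the summit on both strands, CAGATG was found in 20.8% of the 370 regions and 22.2% of all regions, the T-box core AGGTGT in 4.32% and 7.47%, the receptor element AGGTCA in 4.32% and 6.29%, the forkhead motif TGTTTAC in 2.97% and 2.94% and the E-box CACGTG in 2.7% and 3.52%. ATCGAT, the motif of CUX homeodomains, was in 1.35% against 0.464%, which is 5 regions, 2 of them at Cux1, including its main promoter, and 1 each at Cux2, Fezf2 and Neurod6. By locus, CAGATG was in 34.8% of the Cux2 regions and 14.3% to 25% of those at the other genes. Median GC content within the same window was 51.7% for the 9 genes and 48.8% for all regions. These shares describe letters in the sequence and were not tested.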

How the data were processed

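ATAC-seq peak lists of 12 libraries (4 groups of 3) were analysed. The authors called peaks with MACS2 2.2.7.1 for every library on its own, without pooling, after trimming (Trim Galore 0.6.7) and alignment to GRCm38 (Bowtie2 2.5.1), per the methods and processing notes. MACS2 options, duplicate removal and any Tn5 shift are not given in the sources used here and would change peak width, number and height. The deposited lists hold peak and summit positions, a fold enrichment (ratio), significance as -log10 of the p-value and of the q-value, and a score. The score was not used further. It was 10 times the -log10 q, rounded down, for 99.9573% to 99.9978% of the peaks of a library. Group names follow titles and treatment labels. For both treated groups the description field has PBS where these have PFF.

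The genes and gene lists were chosen with earlier results of these data known, and 1 gene of the comparison list is not reported here and was left out of its counts. Regions were assigned with GENCODE vM21, and 1-based coordinates are GRCm38. Percentiles rank the fold within a library's own list. Across the 72465 regions shared by all 12 libraries, fold ranks were turned into normal scores and tested by lmFit and eBayes of limma 3.58.1 (R 4.3.3) on the 6 libraries compared, or all 12 for the F test, with no covariate. Benjamini-Hochberg adjustment covered all regions, with a threshold of 0.05. The procedure was first tested on simulated data. Fragment pileups at summits were recovered from the deposited fold and -log10 p-value, and came out whole, within 0.02, for 100% of peaks. Relative depth is the most frequent background value divided by the smallest peak width, scaled to a mean of 1. Python 3.11.15, numpy 2.4.6, pandas 2.3.3, scipy 1.17.1 and matplotlib 3.10.9 were used.

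Regions named were each gene's start-site region found in most libraries, its highest region away from start sites present in all 12, up to 4 gained and 4 lost per comparison by percentile, those with an adjusted p under 0.05 and, where there were none, the 3 with the smallest p. Ties between start-site regions went to the higher mean percentile. The Bcl11b intron named last among the MLi-2 losses, the main Cux1 promoter and the Fezf2 region present in all libraries were added after their values were seen. The libraries are labelled as biological replicates, and p-values measure the spread between them.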

Additional observations from a re-analysis of the deposited data

How the results depend on the processing

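Counts of gained and lost regions depended on the rule. When peaks in 2 of 3 libraries sufficed, against 0 in the other group, the calls rose to 30 for PFF vs PBS, 31 for PFF+MLi-2 vs PFF, 40 for PFF+Rab5 ASO vs PFF, 19 for PFF+MLi-2 vs PBS and 31 for PFF+Rab5 ASO vs PBS. These were 9.87%, 10.4%, 12.3%, 6.71% and 9.9% of the regions at the 9 genes, next to 6.79%, 7.9%, 12.3%, 5.23% and 10.7% of all regions. Peaks with a -log10 q of at least 5 gave 3, 5, 16, 3 and 9 in the same order. Of the 5 for PFF+MLi-2 vs PFF, 3 were gained. The shares were 1.32%, 2.22%, 6.53%, 1.45% and 3.91% of the regions at the 9 genes. Over all regions they were 1.67%, 2.23%, 4.7%, 0.711% and 3.6%. Windows of 10 kb gave 3, 8, 6, 3 and 7 in the same order. These were 1.53%, 4.06%, 2.83%, 1.69% and 3.52% of the regions, next to 1.5%, 2.01%, 4.57%, 0.803% and 3.58% of all. Equal list length left 5, 8, 13, 3 and 12 calls but turned the balance for PFF vs PBS (1 gained, 4 lost) and PFF+MLi-2 vs PFF (5 gained, 3 lost). The shares were then 1.97%, 3.11%, 5.1%, 1.2% and 4.78%, next to 1.58%, 1.83%, 4.95%, 0.845% and 4.01% of all regions. Leaving out each library in turn gave 8 to 17, 11 to 21, 17 to 22, 6 to 10 and 14 to 23 in the order above, partly by construction, since 2 libraries of a group then suffice. Over all regions the shares were then 2.79% to 3.71%, 3.5% to 4.29%, 6.85% to 7.21%, 1.81% to 2.74% and 5.29% to 6.71%. Height calls for PFF+Rab5 ASO vs PFF were 0 on the percentile scale (0.322% of all regions), 1 at equal list length (1.98%), 0 to 1 without single libraries (0% to 1.37%) and 22 when peaks in 3 of the 6 libraries were enough, with 12 for PFF+Rab5 ASO vs PBS. The last 2 counts are 22 of 211 and 12 of 197 regions, next to 11.6% and 6.90% of all regions. In that setting a missing peak takes the lowest rank, so that calls there mix presence with height. Over 4 groups, the F test gave 1 when ranked by -log10 p (3.19% of all), 0 on the percentile scale (0.800%) and 0 to 3 without single libraries (0.382% to 3.04%). The cause of these shifts was not tested. The study's methods count each pregnancy as a replicate, and no source used here ties a replicate number to a pregnancy, so same-numbered libraries were treated as unpaired. Their deviations correlated at 0.00513 to 0.0788. With the replicate number as a block, calls were 1 for PFF+Rab5 ASO vs PFF (2.31% of all regions), 1 over 4 groups (3.01%) and 0 in the other comparisons, and each library correlated best with the one of its own number except PBS replicate 2 in PFF vs PBS. The block ended the Foxp2 start call (limma adjusted p = 0.0509, and 0.0514 over 4 groups) and the Bcl11b call (0.0520), and the Cux2 call held (0.0482).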

Other observations

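The windows also take in start sites of neighbouring genes, 25 regions in all, and 11 of these were present in every library. The highest, chosen after their values were seen, were at Pheta1 next to Cux2 (mean percentile 90.8), Sh2b2 (87.4) and Prkrip1 (83.2) next to Cux1, Stard3, which encodes a late endosomal sterol carrier, next to Neurod2 (83.6), and Sh2b3 next to Cux2 (82.3). Ppp1r1b, which encodes DARPP-32, had 5 start-site regions in the Neurod2 window, from 12.6 to 75.2. Of the 25 regions, 2 were gained or lost in a comparison, the one at Gm20644 given with PFF and one at an internal Cadps start in the Fezf2 window (chr14:12378042-12378181), which had a peak in 3 PFF+Rab5 ASO libraries, 1 PFF library and none in PBS. A region's place near a gene does not show that it acts on that gene.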
